A study of Caenorhabditis briggsae with 10 samples.

Results

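A set of 48 genes of the nematode Caenorhabditis briggsae had opposite responses to prolonged cold in 2 wild-type strains: transcript levels were higher after cold in HK104, the temperate strain, and lower in AF16, the tropical strain. They were chosen from 23175 genes by their levels in the parental libraries. Levels were expressed as CPM, a gene's count per 1000000 counts of its library, and a response as the log2 ratio of mean cold CPM to mean control CPM with 0.5 added to each. A gene was included when this log2 ratio was at or above 0.6 in HK104 and at or below -0.6 in AF16, when its mean reached 3 CPM in at least 1 of the 4 parental groups, and when cold and control libraries did not overlap within either strain. Of the 10327 genes that reached 3 CPM in a group, 63 passed both log2 limits, and 15 of these were left out because cold and control libraries overlapped, 12 in HK104 and 3 in AF16. The genes carry WormBase identifiers, and neither the deposited tables nor the gene table used here pairs these with names, so no gene function is given.

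The groups were whole wild-type worms of HK104 after cold (2 libraries), HK104 controls (2), AF16 after cold (2), AF16 controls (2), the AF16/HK104 hybrid after cold (1) and the hybrid control (1). Worms were synchronised as L4 larvae and kept for 24 hours at 20 °C. Control worms were collected at that point, and cold worms after 60 hours at 4 °C, so a response holds the elapsed time as well as the cold. The labels do not say whether libraries of a group came from separate cultures, nor which strain was the mother of the hybrid, and any p-value therefore measures only the spread between these libraries.

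Caenorhabditis briggsae is a self-fertilising relative of Caenorhabditis elegans that lives over a wide range of latitudes, and strains of tropical and temperate origin differ in the temperatures they withstand. A transcript whose response differs in sign between strains is a case of genotype-by-environment interaction. In a hybrid, both alleles of a gene share the same nuclei and the same regulatory proteins, so counting the reads of each allele shows whether the alleles respond alike when those proteins are common to both. In whole worms, fewer cells of a type and less RNA per cell cannot be told apart.

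Parental libraries held 15360979 to 18362210 counts. The hybrid libraries held 6008659 (cold) and 5334965 (control) reads assigned to an allele. Under the same limits with the signs exchanged, 4 genes were lower after cold in HK104 and higher in AF16, while 507 genes were higher in both strains and 2041 lower in both.

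The parental responses of the 48 genes were the basis of their choice and are given as a description. The log2 response in HK104 ran from 0.60 to 3.91 with a median of 1.29, beside a median of 0.10 over all 10327 genes. In AF16 it ran from -2.10 to -0.61 with a median of -1.12, again beside 0.10 over all genes. The difference of the responses, HK104 minus AF16, lay between 1.27 and 5.29 with a median of 2.47, against -0.02 over all genes. Of the 10327 genes, 10.6% met the limits and the lack of overlap in HK104, 25.3% met those in AF16, and 0.465% met both. Since these shares and the 48 genes come from the same values, nothing is read from them.

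Most of the 48 genes were lowly expressed. The median gene had a mean of 4.97 CPM over the 8 parental libraries, against 31.0 CPM for all 10327 genes, and 15 of the 48 reached 10 CPM. The median level of the 48 genes was 14.6 and 7.30 CPM in the HK104 cold libraries, against 3.77 and 3.47 CPM in the HK104 controls. In AF16 the median was 1.82 and 1.39 CPM in the cold libraries, against 4.38 and 4.29 CPM in the controls. The control libraries of both strains thus lay at similar levels, and the cold libraries lay on either side of them.

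**Figure D1:**
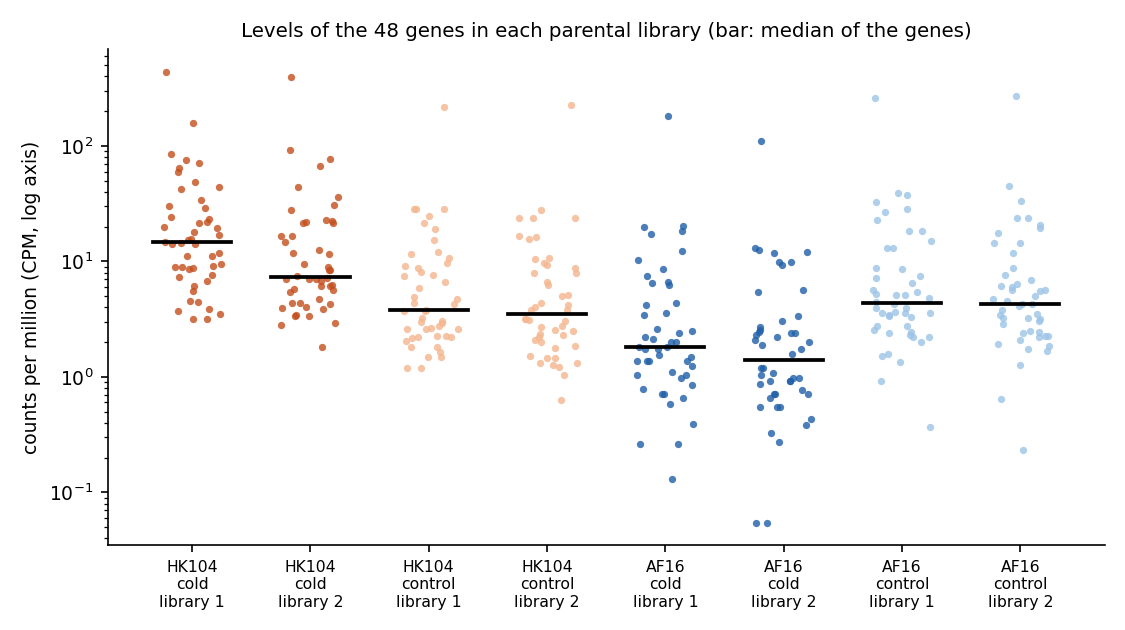
Level of each of the 48 genes in each parental library, in CPM on a log axis; each dot is a gene and each bar the median of the genes. The medians of the HK104 cold libraries are 14.6 and 7.30 CPM and those of the AF16 cold libraries 1.82 and 1.39 CPM, with the control libraries between 3.47 and 4.38 CPM.

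The order of the 4 groups was much the same from gene to gene. HK104 cold was the highest group at 46 of the 48 genes, and AF16 cold was the lowest at 47. Both HK104 cold libraries lay above all other parental libraries at 41 genes, as they did at 10.3% of all 10327 genes. Both AF16 cold libraries lay below all others at 43 genes, against 7.72% of all genes, and 39 genes had both features. The choice of the genes fixes much of this order. The counts of 46, 47 and 39 have no share over all genes beside them, and nothing is read from them. The mean control levels of the strains were within 2-fold at 46 of the 48 genes, as they were at 91.4% of all 10327 genes. The log2 ratio of HK104 to AF16 was -0.17 in the median without cold (range -1.35 to 0.97), and HK104 was the higher strain at 17 genes. After cold the median ratio was 2.27 (range 0.52 to 5.71), and HK104 was higher at all 48. The rule used both sets of levels, so these ratios are a description as well.

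WBGene00025909 and WBGene00041382 had the widest difference between the strains, and also the highest log2 responses in HK104. WBGene00025909 had 158 and 91.4 CPM in the HK104 cold libraries, against 9.07 and 6.65 CPM in the HK104 controls. In AF16 it had 2.60 and 1.20 CPM after cold, against 6.49 and 5.04 CPM in controls. Its log2 response was 3.91 in HK104 and -1.38 in AF16, a difference of 5.29. WBGene00041382 had 16.9 and 8.37 CPM in HK104 after cold, against 1.81 and 1.04 CPM in HK104 controls. It had 0.977 and 0.708 CPM in AF16 after cold, against 2.2 and 1.91 CPM in AF16 controls. In both genes the HK104 cold libraries lay above all other parental libraries. Those others ran from 1.20 to 9.07 CPM at WBGene00025909 and from 0.708 to 2.2 CPM at WBGene00041382. The HK104 cold libraries also differed from each other by more than any other replicate pair of the gene in absolute CPM.

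With 0.5 added to CPM, the median log2 response of the set was smaller in size in AF16, -1.12, than in HK104, 1.29. At single genes either strain had the larger response. The added 0.5 makes ratios at low levels smaller, and AF16 cold had the lowest levels, so the sizes do not rank the strains. The lowest log2 responses in AF16 were -2.10 at WBGene00035144 and -2.04 at WBGene00027448. WBGene00035144 had 42.8 and 16.7 CPM in HK104 after cold, against 12 and 10.8 CPM in HK104 controls, and 1.76 and 0.926 CPM in AF16 after cold, against 8.75 and 6.09 CPM in AF16 controls. WBGene00027448 had 8.57 and 3.84 CPM in HK104 after cold, against 3.69 and 3.82 CPM in HK104 controls, so that the second cold library lay barely above the controls. It had 2.15 and 0.545 CPM in AF16 after cold, against 8.57 and 5.62 CPM in AF16 controls. The main change of WBGene00027448 was thus in AF16, and its highest group was the AF16 control, with a mean of 7.10 ± 2.08 CPM, beside 6.2 ± 3.35 CPM in HK104 after cold (SD, n = 2 libraries each).

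The 2 most abundant genes rest on the most counts. WBGene00037707 averaged 419 ± 28.4 CPM in HK104 after cold and 221 ± 6.08 CPM in HK104 controls (SD, n = 2 each). In AF16 it averaged 145 ± 49.8 CPM after cold and 265 ± 6.27 CPM in controls (SD, n = 2 each). Its log2 responses of 0.92 and -0.87 were among the smaller ones of the set, but it was the only gene of the 48 with a mean above 50 CPM and so had the smallest counting error. WBGene00089170 averaged 81.9 ± 5.77 CPM in HK104 after cold and 28.1 ± 0.175 CPM in HK104 controls (SD, n = 2 each). It averaged 15.8 ± 3.79 CPM in AF16 after cold and 36.2 ± 3.70 CPM in AF16 controls (SD, n = 2 each).

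**Figure D2:**
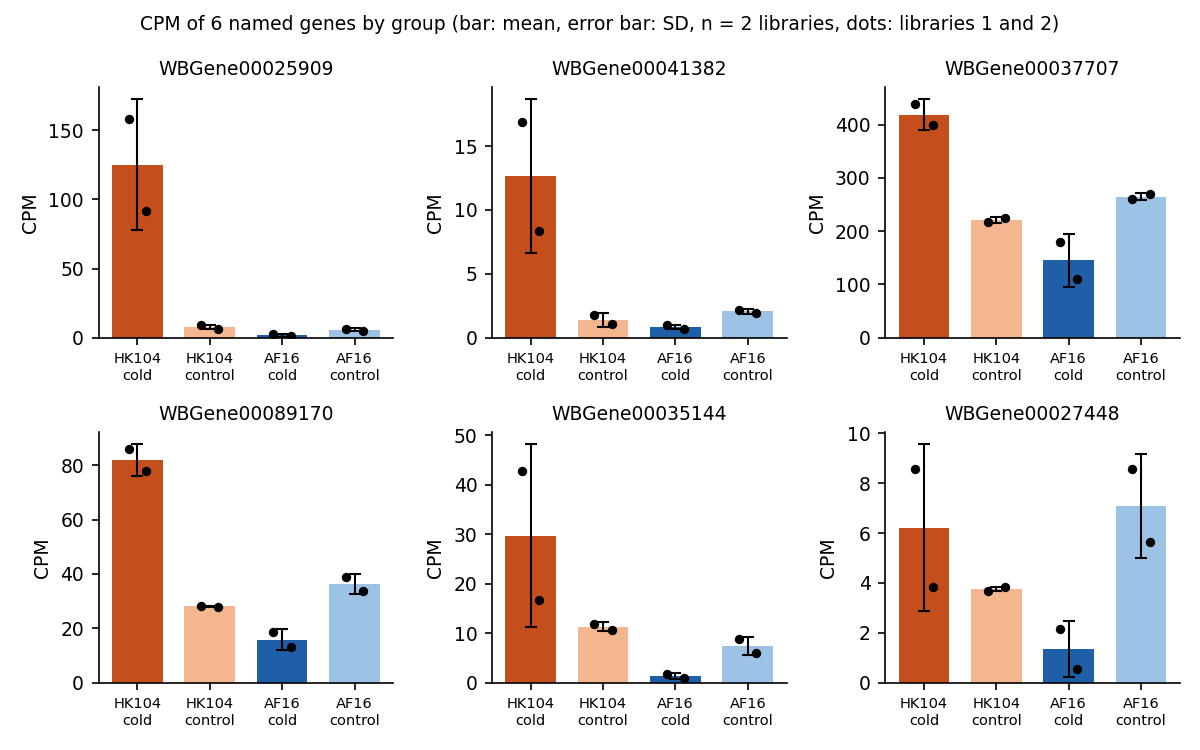
Levels (CPM) of 6 genes in the 4 parental groups; bars are means, error bars the SD of n = 2 libraries, and dots libraries 1 (left) and 2 (right). The HK104 cold bar is the tallest in every panel except that of WBGene00027448, where the AF16 control averages 7.10 CPM and HK104 cold 6.2 CPM.

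Genes near the limits show how close the selection runs to its neighbours. WBGene00036672 was just inside the HK104 limit, with a log2 response of 0.60, and WBGene00026112 just outside it with 0.58 in HK104 and -1.23 in AF16. WBGene00030472 was just inside the AF16 limit with -0.61, and WBGene00034257 just outside it with -0.57 in AF16 and 1.02 in HK104. These genes differ from their neighbours by less than the spread between replicates.

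In the fit of all 13503 tested genes by the quasi-likelihood test of edgeR, with p-values adjusted over all genes, 34 of the 48 genes were called higher after cold in HK104 (4.54% of all genes), 31 lower in AF16 (20.1%) and 24 for a higher response in HK104 than in AF16 (0.437%). The rule used the same contrasts, so the counts describe how many of the chosen genes exceed the spread between libraries and nothing more is read from them. Among the named genes the adjusted p of the difference was 0.00555 at WBGene00025909, 0.00963 at WBGene00089170, 0.0228 at WBGene00041382, 0.0247 at WBGene00035144, 0.0253 at WBGene00037707 and 0.0991 at WBGene00027448. With library totals in place of TMM scaling in edgeR, all 48 genes and 787 of all 13503 genes had an unadjusted p below 0.05 for the difference. The rule chose the 48 on this contrast, so nothing is read from that. After adjustment the count for the difference was then 0 of the 48, and it was 39 with DESeq2. It was also 0 without HK104 cold library 1 and without AF16 cold library 2, and 7, 3, 4 and 1 without AF16 control 1, AF16 control 2, HK104 control 1 and HK104 control 2, where a group is left with a single library. The count in HK104 was 13 without HK104 cold library 1, 19 without HK104 control 1 and 11 without HK104 control 2, and that in AF16 was 13 without AF16 cold library 2 and 19 without AF16 control 2.

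The 2 cold libraries of HK104 did not contribute equally. Library 1 exceeded library 2 at 45 of the 48 genes, by a median log2 ratio of 0.63. Over all 10327 genes it was the higher one at 65.2%, by a median of 0.17. Measured against the mean of the controls, the median log2 response of the 48 genes was 1.5 in HK104 cold library 1 and 0.98 in library 2. In AF16, cold library 1 was the higher one at 38 of the 48 genes, by a median of 0.44, against 61.7% of all genes and a median of 0.21, and the median response was -0.92 in library 1 and -1.27 in library 2. Replicates of the controls were closer, with a median absolute log2 difference over the 48 genes of 0.21 in HK104 and 0.28 in AF16, beside 0.63 and 0.48 in the cold groups. Over all 10327 genes it was 0.11 in HK104 and 0.16 in AF16 controls, and 0.30 and 0.46 in the cold groups. In both strains cold library 1 carries a letter suffix in its description that no other library has, and what it denotes is not stated. The part of these library differences in the result was not tested. When the rule was applied without HK104 cold library 1, 36 genes met it, 35 of them among the 48, and without HK104 cold library 2 100 genes met it, 47 of them among the 48. Without AF16 cold library 1, 86 genes met it, 45 of them among the 48.

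The hybrid libraries took no part in the choice of the genes and show how the same 48 genes behaved when both genomes shared one cell. Over the 48 genes the median log2 ratio of cold to control in the hybrid was 0.39, beside 0.06 over the 10327 genes. It was above 0 at 37 of the 48 genes, against 53.2% of all genes. A total of 21 genes were at or above 0.6, a limit passed by 18.2% of all genes, and 4 were at or below -0.6, as were 24.2% of all genes. With 1 library per condition there is no replicate check, no test was made, and counts were low: the median gene had 35 assigned reads in the cold library and 22 in the control. Among the 33 genes with a mean under 10 CPM in the parental libraries, 14 were at or above 0.6 and 2 at or below -0.6, against 13.6% and 44.2% of the 3292 genes in the same range. Higher ratios outnumbered lower ones among the 48 genes also in the low range, where lower ones were the more frequent kind among all genes. However, all genes could pass the minimum of 3 CPM through any parental group, while HK104 cold was the highest group at 46 of the 48. The sets are not matched in this respect, so these shares are a description and nothing is read from the contrast. With 2 in place of 0.5 added to CPM, 13 of the 48 genes were at or above 0.6 and 2 at or below -0.6. Of the 100 genes that met the rule without HK104 cold library 2, 22.0% were at or above 0.6 in the hybrid.

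Depth in the hybrid divides the 48 genes in 2. At 25 genes both hybrid libraries held at least 20 assigned reads, and of these 10 were at or above 0.6, 3 at or below -0.6 and 12 between. Of all 8100 genes with that minimum, 18.3% were at or above 0.6 and 16.4% at or below -0.6. At the other 23 genes, on fewer reads, 11 were at or above 0.6 and 1 at or below -0.6, against 17.2% and 50.2% of the 2374 genes that reached 3 CPM in a parental group but not 20 reads in both hybrid libraries. These sets are not matched in the group through which they passed the minimum either. WBGene00025909, with the widest difference between the strains, had 9 reads in the hybrid cold library and 2 in the control, too few for a useful ratio (95% interval 0.827 to 38.0 for cold over control). WBGene00041382 had 12 reads after cold and 9 in the control. Of the 15 genes with a parental mean of at least 10 CPM, 3 fell short of 20 reads in at least 1 hybrid library, and the same held for 9.18% of all genes at that level.

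Set beside both parents, the hybrid's log2 ratio lay between those of its parents at 43 of the 48 genes, above that of HK104 at 5 and below that of AF16 at 0. It was nearer to HK104 at 33 genes and nearer to AF16 at 15. In the median the hybrid stood at 0.623 of the way from the AF16 response (0) to the HK104 response (1), and at 0.579 over the 25 genes with enough reads. Over those 25 genes it was nearer to HK104 at 16 and nearer to AF16 at 9. The strains' responses were chosen to be far apart, which widens the range in which the hybrid can fall. Any hybrid ratio between -0.6 and 0.6, as at 23 of the 48 genes, lies between the strains by the rule. No position was computed for genes outside the set, so nothing is read from these counts and positions.

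**Figure D3:**
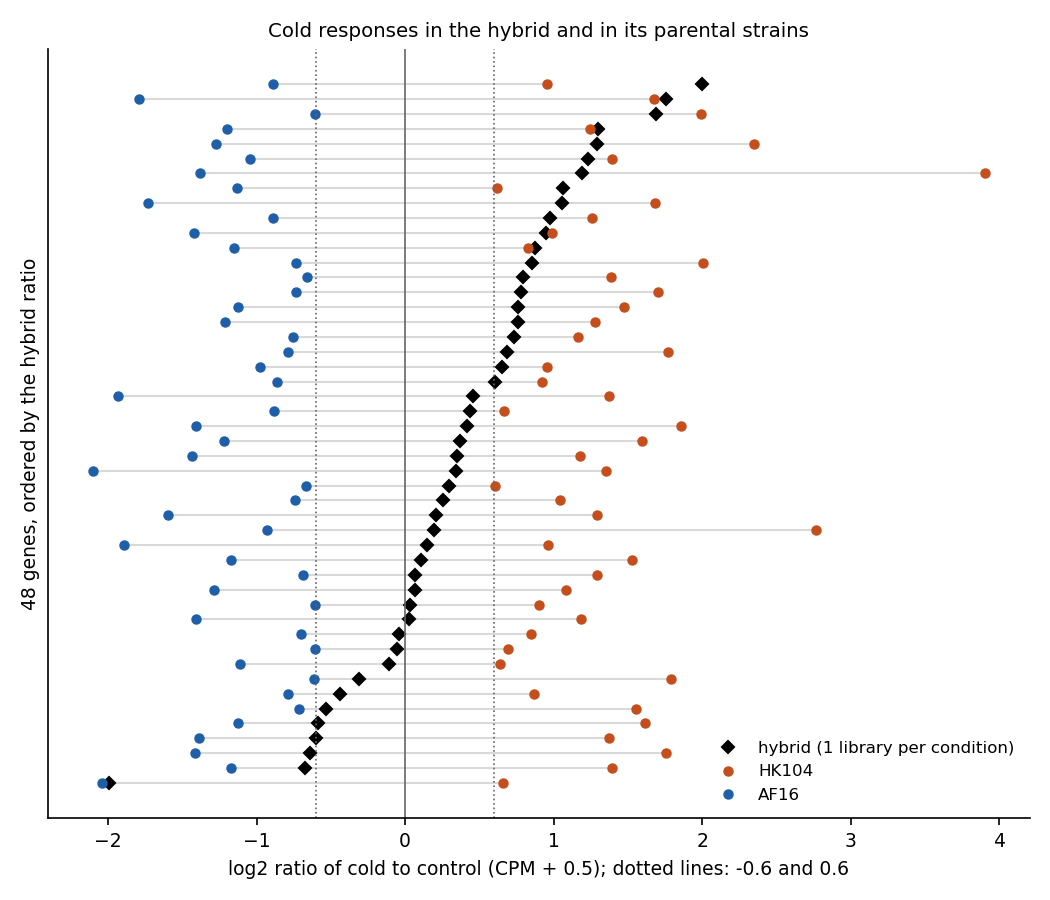
Log2 ratio of cold to control (CPM plus 0.5) of the 48 genes, ordered by the ratio in the hybrid; black diamonds are the hybrid (1 library per condition), orange dots HK104 and blue dots AF16 (2 libraries per group), and grey lines join the strains. The hybrid lies between the strains at 43 genes and at or above 0.6 at 21. Hybrid ratios between -0.6 and 0.6 lie between the strains by the rule.

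Among genes with enough reads, the highest ratios in the hybrid were at WBGene00028863 and WBGene00036054. WBGene00028863 had 22.1 CPM in the hybrid cold library, against 6.19 CPM in the hybrid control, a ratio of 3.58 (95% exact interval 2.43 to 5.41). In HK104 it had 11.8 and 7.17 CPM after cold, against 2.95 and 2.31 CPM in controls, and in AF16 0.716 and 0.926 CPM after cold, against 2.57 and 5.57 CPM in controls. Its hybrid log2 ratio of 1.76 was close to the 1.67 of HK104. WBGene00036054 had 71.2 CPM in the hybrid after cold, against 28.7 CPM in the hybrid control, a ratio of 2.48 (95% exact interval 2.06 to 3.01). In HK104 it had 44.1 and 31.0 CPM after cold, against 15.3 and 15.8 CPM in controls, and in AF16 10.4 and 5.61 CPM after cold, against 18.3 and 19.7 CPM in controls. At both genes the log2 ratio of the hybrid was slightly above that of HK104 and far from that of AF16.

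At the other end stood WBGene00027448 and WBGene00032394, which were lower after cold in the hybrid. WBGene00027448 had 4.33 CPM in the hybrid after cold, against 18.7 CPM in the hybrid control, a ratio of 0.231 (95% exact interval 0.144 to 0.358). Its hybrid log2 ratio of -2.0 was close to the -2.04 of AF16. WBGene00032394 had 27.6 CPM in the hybrid after cold, against 43.3 CPM in the hybrid control, a ratio of 0.638 (95% exact interval 0.519 to 0.782). In HK104 it had 48.6 and 22.3 CPM after cold, against 9.70 and 10.6 CPM in controls, and in AF16 6.25 and 3.38 CPM after cold, against 13.0 and 14.3 CPM in controls. The intervals cover counting error only, as the reads are not known to be independent molecules.

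The alleles of the hybrid were then compared at the 25 genes where both libraries reached 20 reads. Each allele's response was its log2 ratio of cold to control in CPM, scaled by all assigned reads of the library. The HK104 allele had a median log2 ratio of 0.63 and the AF16 allele one of 0.19, beside 0.13 and 0.13 over all 8100 genes with that minimum. The HK104 allele was at or above 0.6 at 13 genes, against 20.3% of all genes, and at or below -0.6 at 3, against 17.4%. The AF16 allele was at or above 0.6 at 5 genes, against 19.0% of all genes, and at or below -0.6 at 5, against 17.5%. The AF16 allele was higher after cold at 14 of the 25, near the share of 58.3% over all genes.

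Both alleles were higher after cold at 14 of the 25 genes, against 48.2% of all 8100 genes, and both were lower at 6, against 30.7%. The HK104 allele was higher and the AF16 allele lower at 5 genes (9.91% of all genes), and 0 of the 25 had the opposite pattern (9.63% of all genes). A single gene had both the HK104 allele at or above 0.6 and the AF16 allele at or below -0.6, the pattern of the strains, which 0.420% of all genes showed. That gene was WBGene00029360, which was not called by the Fisher exact test of allele counts given below (adjusted p = 0.0760). Its HK104 allele had 31 reads after cold and 14 in the control, while its AF16 allele had 16 reads after cold and 27 in the control. In the strains it had 22.0 and 11.6 CPM in HK104 after cold, against 8.05 and 6.19 CPM in HK104 controls, and 6.58 and 3.05 CPM in AF16 after cold, against 18.4 and 8.81 CPM in AF16 controls.

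**Figure D4:**
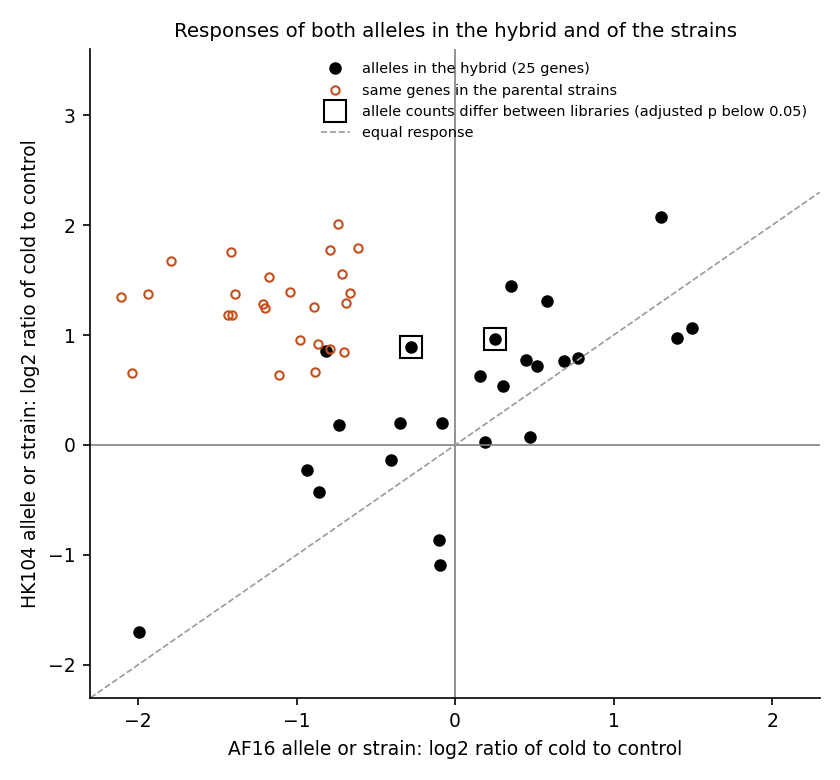
Log2 ratio of cold to control of the HK104 allele (vertical) against that of the AF16 allele (horizontal) in the hybrid, for the 25 genes where both libraries reached 20 reads (black), and of the same genes in the strains (open orange). Dots above the dashed line had a larger HK104 share after cold, as at 19 of the 25 genes; squares mark the 2 genes whose allele counts differed between the libraries at an adjusted p below 0.05.

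The share of reads from the HK104 allele had a median of 55.6% in the cold library, against 46.5% in the control library, over the 25 genes. Over all 8100 genes it was 49.4% in the cold library and 49.2% in the control library. The share was larger after cold at 19 of the 25 genes and smaller at 6, while 50.9% of all genes had a larger share. On the log2 scale the change of the HK104 to AF16 allele ratio had a median of 0.31 (range -1.18 to 1.86), beside a median difference of 2.45 between the responses of the strains at the same genes. The change was at least 0.5 of the strains' difference at 3 of the 25. The median over all 8100 genes was 0.01.

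A Fisher exact test (two-sided) of the allele counts between the 2 hybrid libraries, adjusted over all 8100 genes, called 2 of the 25 genes, both with a larger HK104 share after cold, against 2.94% of all genes with a call in that direction and 5.54% with a call in either. It compares these 2 libraries and not the conditions, since it allows for counting error only. At WBGene00037707 the HK104 allele had 2548 reads in the cold library, or 55.6% of the gene's reads (95% Wilson interval 54.2 to 57.1), against 1156 reads in the control library, or 43.3% (41.4 to 45.2), with an adjusted exact p of 4.44e-21. Its AF16 allele had 2032 reads after cold and 1513 in the control, a log2 ratio of 0.25, beside 0.97 for the HK104 allele. The change of the allele ratio at this gene was 0.71, beside 1.79 for the difference between the strains. At WBGene00028847 the HK104 allele had 122 reads or 63.2% in the cold library (56.2 to 69.7), against 57 reads or 42.5% in the control library (34.5 to 51.0), with an adjusted exact p of 0.0102. Its AF16 allele had 71 reads after cold and 77 in the control. In the strains WBGene00028847 had 75.9 and 44.1 CPM in HK104 after cold, against 28.6 and 23.9 CPM in HK104 controls, and 17.4 and 12.5 CPM in AF16 after cold, against 37.9 and 44.8 CPM in AF16 controls.

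The largest changes of the allele ratio toward HK104 were 1.86 at WBGene00029360 (adjusted exact p = 0.0760) and 1.21 at WBGene00028847. The largest changes toward AF16 were at WBGene00029970 and WBGene00027193. WBGene00029970 had an HK104 share of 29.0% in the cold library (95% Wilson interval 16.1 to 46.6), against 48.8% in the control library (34.3 to 63.5), and an adjusted exact p of 0.488. WBGene00027193 had an HK104 share of 31.4% in the cold library (18.6 to 48), against 46.5% in the control library (32.5 to 61.1), and an adjusted exact p of 0.620. At both, the intervals of the libraries overlap, and the change was not detectable at this depth. WBGene00027193 was also the one gene of the 48 whose lowest group was the HK104 control, with 1.49 ± 0.222 CPM, beside 2.03 ± 0.632 CPM in AF16 after cold (SD, n = 2 each).

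At the genes with the highest and lowest hybrid ratios, among those with enough reads, both alleles moved in the same direction. At WBGene00036054 the HK104 allele had 197 reads after cold and 82 in the control, and the AF16 allele 231 after cold and 71 in the control. At WBGene00028863 the HK104 allele had 76 reads after cold and 14 in the control, and the AF16 allele 57 after cold and 19 in the control. At WBGene00027448 the HK104 allele had 9 reads after cold and 32 in the control, and the AF16 allele 17 after cold and 68 in the control. WBGene00032394 had 94 HK104 reads after cold and 113 in the control, and 72 AF16 reads after cold and 118 in the control. None of these changes of the allele ratio passed the test, with adjusted exact p-values of 0.428, 0.527, 0.990 and 0.500. The change at WBGene00028863 was 0.84 on 33 control reads, so the lack of a call does not show equal responses of the alleles. At WBGene00089170 neither allele moved far, with 102 HK104 reads after cold and 89 in the control, and 98 AF16 reads after cold and 76 in the control.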

How the data were processed

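Deposited tables of raw counts by gene (8 parental libraries) and by allele (2 hybrid libraries) were the starting point. The submitters' processing notes name cutadapt, HISAT2 2.2.0, HTSeq 0.11.1 and edgeR. Genome build, annotation, use of strand and the rule that assigns reads to an allele are not given in the sources used here, so reads of near-identical or overlapping genes may be divided in unknown ways. The 4 columns of the hybrid table, named by strain and condition, were read as allele counts: at 11 genes read in AF16 libraries only, 98.6% of hybrid reads were in the AF16 columns. The authors also deposited edgeR tables with log2 fold changes, an F score and p-values, per the file headers; their log2 fold changes for the 48 genes equalled those of the fit below to within 4.94e-10.

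The rule, with the limits in the report, was applied to CPM from library totals. The whole-table fit used edgeR 4.0.16 (R 4.3.3) with TMM scaling and filterByExpr (minimum count 10), 1 coefficient per group and Benjamini-Hochberg adjustment at 0.05. The fit, the rule and the allele test were tested on simulated data. Of 23175 identifiers, 0 matched the CB4 gene table. The marker lists set up by symbol were therefore not used, and no sequence is shown. Genes named are the 2 extremes of each measure, the nearest genes at each log2 limit and those called by the allele test. The genes and the limits were chosen with earlier results of these data known.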

Additional observations from a re-analysis of the deposited data

Results flagged for a closer look

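By the test of the difference between the strains' responses, 24 of the 48 genes differed. The rule chose the genes on that contrast, so the count is a description. Within the hybrid, where the libraries are independent of the rule, the allele counts differed between the 2 libraries at 2 of the 25 genes tested, beside 5.54% of all 8100 genes and 2.94% with a larger HK104 share after cold. The log2 HK104 to AF16 allele ratio changed by 0.71 at WBGene00037707 and by 1.21 at WBGene00028847, each toward HK104. The test allows for counting error only, and with 1 hybrid library per condition there is no replicate check.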

How the results depend on the processing

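The number of genes that met the rule was 28 with 2 in place of 0.5 added, 28 with a minimum of 10 CPM and 21 with a log2 limit of 1, all of them among the 48. It ranged from 36 to 100 when single libraries were left out, and was 54 with TMM and 44 with DESeq2 size factors. All 48 genes kept a positive sign in HK104 and a negative one in AF16 under both scalings. The difference between the strains' responses was called at 24 of the 48 and 67 of all genes. With library totals only these counts were 0 and 0 in edgeR (48 and 787 at an unadjusted p below 0.05). With the DESeq2 Wald test they were 39 and 167, and without a filter 37 and 142. With the replicate number as a block they were 38 and 144; same-numbered libraries of different groups correlated in their deviations at 0.003 to 0.34, above 0.1 in 4 of 6 pairs of groups and not in all, the labels give the numbers no shared culture or day, and they were not taken as a pairing. Leaving out single libraries gave 0 to 29 of the 48 and 0 to 93 of all genes, 11 to 37 called higher in HK104 and 13 to 34 called lower in AF16; an arm left with 1 library was assumed to vary like the others. In the hybrid, 2 added to CPM left 13 genes at or above 0.6 and 2 at or below -0.6, against 21 and 4, and the minimum of 20 reads, which retains 25 genes, left 10 at or above 0.6. As an alternative chosen after seeing the data, the share of genes at or above 0.6 in the hybrid, 43.8%, was recomputed with the rule applied without each parental library. It ranged from 22.0% (without HK104 cold library 2, 100 genes) to 52.8% (without HK104 cold library 1, 36 genes). Under the alternatives run, the median hybrid ratio of the 48 genes lay between 0.25 and 0.45, the median change of the allele ratio between 0.30 and 0.33, and 2 or 3 genes were called by the allele test. In the hybrid, depth limits single genes, as 23 of the 48 had under 20 reads in a library, and there is 1 library per condition. The causes of these shifts were not tested.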
